A study of Mus musculus with 10 samples.

Results

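The 10 genes described here make, break down or sense prostaglandins: Ptgs1, Ptgs2, Ptges, Ptgis, Ptgds, Hpgd, Ptger2, Ptger3, Ptger4 and Ptgfr. They were chosen by function, when accessibility results of these same libraries were already known, among them a higher level at Ptgs2 after 1 day of forskolin. Their peaks were chosen by position alone: a peak belonged to a gene when its midpoint lay inside the gene's RefSeq bounds, or, outside protein-coding genes, when that gene's end was the nearest within 50 kb. This gave 107 peaks of the 122984 in the table. Of them 49 had their midpoint inside a member gene and 58 outside, and no peak was shared with another protein-coding gene. A test was possible for 104; the other 3, 1 each of Ptgis, Hpgd and Ptger2, had too few counts. Because peaks of 1 gene share a locus, they are not replicates of each other.

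The assay was ATAC-seq, where a transposase inserts adapters into accessible DNA, and the cells were MAP cells. These are an immortalized line of mouse adipocyte progenitors, and every library comes from this single line. All 5 groups were first turned into adipocytes with insulin, isobutylmethylxanthine, dexamethasone and rosiglitazone, then insulin and rosiglitazone, so the vehicle control had also met rosiglitazone (and isobutylmethylxanthine, a phosphodiesterase inhibitor) before the treatments began at day 7 to 8. The groups of 2 libraries were vehicle control (S1, S2), forskolin for 4 hours (S3, S4), for 1 day (S5, S6) and for 3 days (S7, S8), and rosiglitazone for 3 days (S9, S10), with no dose given for forskolin. Nuclei were collected by a Hoechst sort, which marks DNA and no cell type. Forskolin raises cAMP by activating adenylyl cyclase, and rosiglitazone activates the nuclear receptor PPARγ. Whether the libraries of a group are separate cultures is not stated, so the tests measure the spread between these libraries, which may be technical.

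Prostaglandins are lipid messengers made from arachidonic acid. The cyclooxygenases Ptgs1 and Ptgs2 make the common precursor PGH2, terminal synthases turn it into PGE2, prostacyclin or PGD2, and the receptors for PGE2 and PGF2α couple to different G proteins. In adipose tissue, PGE2 acting through Ptger3 is known to restrain lipolysis, PGF2α to inhibit adipocyte differentiation, and Ptgs2 activity to favour beige adipocytes. Accessibility is not transcription, and only accessibility was analysed here.

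Each library held between 10410233 and 18935287 counts in peaks. Levels are given as CPM, counts per 1000000 counts in peaks after TMM scaling of the library totals, and a change is called at an edgeR adjusted p below 0.05 over all peaks or genes tested; differences are log2 fold changes with their standard error (SE). The adipocyte marker genes (7 of 7 with peaks) summed to 631 to 684 CPM in control, 652 to 695 at 4 hours, 573 to 590 at 1 day, 602 to 625 at 3 days and 836 to 839 with rosiglitazone. The sum gives most weight to the most open genes, and Fabp4 alone ranged from 138 to 325 CPM. Of the 7, 2 were called higher and 0 lower with rosiglitazone, against 2.37% and 5.00% of all genes. At 1 day 0 were higher and 4 lower, against 9.37% and 28.2%. Progenitor markers (5 of 5 with peaks) summed to 220 to 250 CPM over all libraries. Endothelial markers (4 of 4) were at 117 to 124 CPM in control and 140 to 150 at 4 hours, macrophage markers (4 of 5, Adgre1 without a peak) at 107 to 124 throughout, and T cell markers (2 of 3, Cd3g without a peak) at 1.73 to 3.52. The part of these shifts in the results below was not tested, and in bulk nuclei a change in the share of a cell type cannot be told apart from a change within cells.

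The promoter windows of 9 members were in the RefSeq table (build GRCm38.p6; 250 bases before to 50 after the start site; Ptgis has no entry). The windows of Ptgs2, Ptgs1 and Ptger3 are shown because the peak over each start site rose after 4 hours of forskolin, and that of Ptger4 because its start-site peak was the most open of all 107 and was not called in any comparison. Capitals mark matches to the searched motifs on either strand.
Ptgs2: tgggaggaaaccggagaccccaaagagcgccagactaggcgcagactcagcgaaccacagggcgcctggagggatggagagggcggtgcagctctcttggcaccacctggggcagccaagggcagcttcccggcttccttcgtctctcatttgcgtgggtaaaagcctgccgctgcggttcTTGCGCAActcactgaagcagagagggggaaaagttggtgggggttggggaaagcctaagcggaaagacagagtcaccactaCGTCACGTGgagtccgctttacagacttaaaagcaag
Ptgs1: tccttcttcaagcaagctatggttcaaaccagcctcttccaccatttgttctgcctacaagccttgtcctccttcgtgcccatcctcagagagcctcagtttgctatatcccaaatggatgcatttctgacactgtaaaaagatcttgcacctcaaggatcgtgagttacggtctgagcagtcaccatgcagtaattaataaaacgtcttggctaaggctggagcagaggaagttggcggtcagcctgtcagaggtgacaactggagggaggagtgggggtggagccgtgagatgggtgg
Ptger3: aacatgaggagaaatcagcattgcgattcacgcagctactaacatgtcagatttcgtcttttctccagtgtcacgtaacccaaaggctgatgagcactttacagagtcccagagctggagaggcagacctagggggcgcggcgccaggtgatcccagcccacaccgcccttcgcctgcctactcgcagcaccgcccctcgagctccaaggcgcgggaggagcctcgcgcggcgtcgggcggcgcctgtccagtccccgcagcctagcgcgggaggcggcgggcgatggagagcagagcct
Ptger4: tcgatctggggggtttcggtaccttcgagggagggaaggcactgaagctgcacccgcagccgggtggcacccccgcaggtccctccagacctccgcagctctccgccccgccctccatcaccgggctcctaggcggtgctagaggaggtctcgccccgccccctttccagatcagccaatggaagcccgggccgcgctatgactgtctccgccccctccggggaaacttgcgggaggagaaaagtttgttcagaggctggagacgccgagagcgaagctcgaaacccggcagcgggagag
They lie at chr1:150099781-150100080 (plus strand, Ptgs2), chr2:36230176-36230475 (plus strand, Ptgs1), chr3:157566626-157566925 (plus strand, Ptger3) and chr15:5244138-5244437 (minus strand, Ptger4). The searched letters were the cAMP response element TGACGTCA, its shorter core TGACG, the C/EBP letters TTGCGCAA and TTGCNNAA, the AP-1 letters TGANTCA, the E-box CACGTG and the TATA box TATAAA. Of these 4 windows only that of Ptgs2 held a match. It held TTGCGCAA from −69, the reverse complement of TGACG from +14 and CACGTG from +17 (start site +1), the last pair sharing 2 letters. Of the 32851 RefSeq windows of that length, 0.183% held TTGCGCAA, 20.8% TGACG, 7.15% CACGTG and 1.79% the full TGACGTCA, which no member held. Among the other members, Ptgds held TGACTCA from −35 (TGANTCA stood in 7.81% of windows), Hpgd TATAAA from +5 (13.6%) and Ptger2 TTGCTTAA from +40 (TTGCNNAA, 10.8%). A match describes the letters of the window and no more. The GC content was 59.3% in Ptgs2, 50.7% in Ptgs1, 64% in Ptger3 and 67% in Ptger4, against a median of 52.7% over all windows.

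Counted together, forskolin opened more of these peaks than it closed, most at 4 hours, though not in every gene. At 4 hours 38 of the 104 tested peaks rose (36.5%) and 9 fell (8.65%), while 18.5% of all tested peaks rose and 12.8% fell. Of the 38, 13 belonged to Ptgs1, 8 to Ptgs2 and 1 to Hpgd, and Ptger4 and Ptgds had none. Of the 9 that fell, 2 each belonged to Ptgds, Hpgd and Ptgis. Called peaks, in either direction, numbered 27 without control library S2 and 29 without the 4-hour library S3, in place of 47. At 1 day 24 rose (23.1%) and 3 fell (2.88%), against 12.9% and 9.79% of all peaks. The 24 include 2 peaks of Ptgs2, whose higher level at 1 day was known when the genes were chosen. The 8 Ptgs2 peaks that rose at 4 hours were tested against the same control libraries. At 3 days 13 rose (12.5%) and 2 fell (1.92%), against 8.50% and 5.32%, and the 15 calls became 7 without S2 and 8 without the 3-day library S7.

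**Figure D1:**
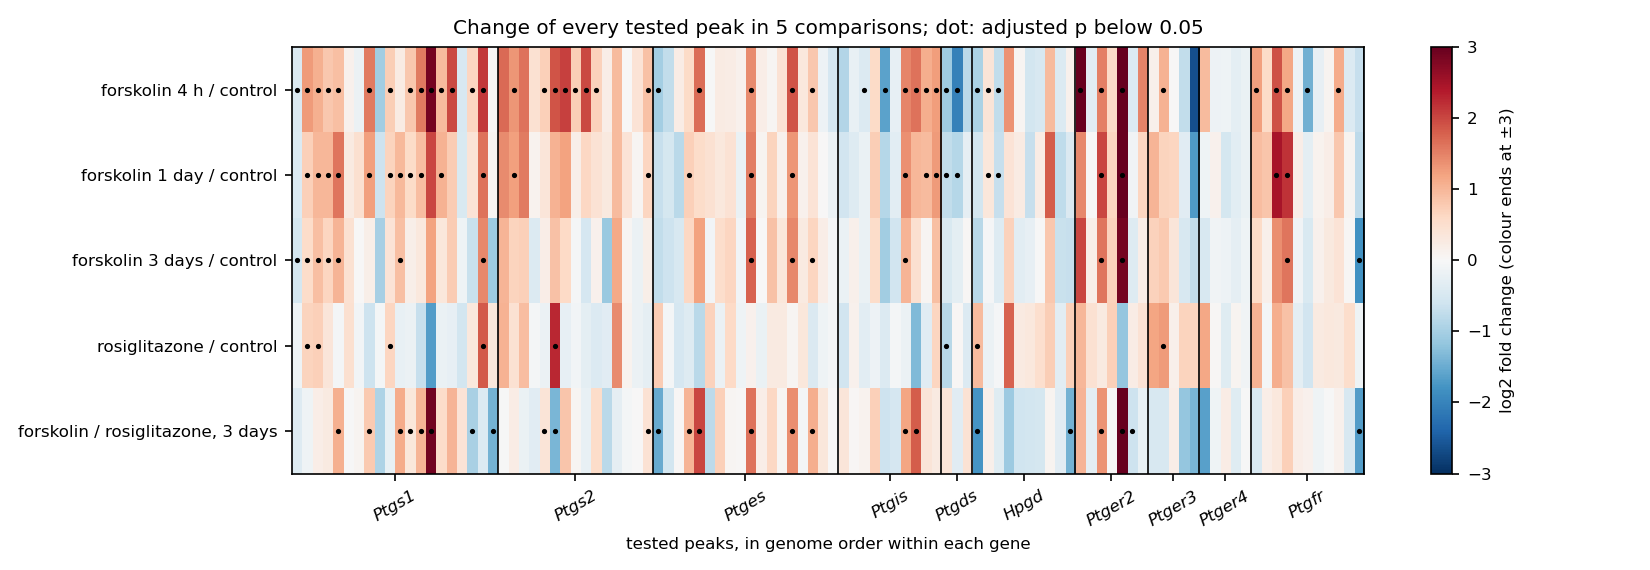
Log2 fold change of each of the 104 tested member peaks (columns, in genome order within each gene) in 5 comparisons (rows), with a dot where the adjusted p was below 0.05. Red blocks at 4 hours lie mostly over Ptgs1 and Ptgs2 and fade by 3 days, while the rosiglitazone row carries 8 dots.

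Of the 104 tested peaks, 40 rose at 1 or more forskolin times (38.5%, against 21.9% of all tested peaks), and 11 rose at all 3 (10.6% against 6.14%). By the calls 15 rose at 4 hours but not later (14.4% against 7.49%), and 54 were not called in any treatment (51.9% against 58.6%). The 11 comprised 5 peaks of Ptgs1, 2 each of Ptges and Ptger2, and 1 each of Ptgis and Ptgfr. By place, 15 of 46 tested peaks inside the genes rose at 4 hours (32.6%, against 17.4% of all tested peaks inside genes) and 23 of 58 outside (39.7%, against 18.6% of all assigned peaks outside genes). Of the 8 tested start-site peaks 3 rose at 4 hours, and the median change of the 8 was 0.04. The share over the start sites of all genes was not computed. A start-site peak here covers or lies next to the RefSeq start (for Ptgis, a peak within 1 kb of an annotated end).

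Rosiglitazone moved few of them. In that comparison 7 peaks rose (6.73%) and 1 fell (0.962%), against 3.23% and 3.32% of all peaks, and 4 of the 7 belonged to Ptgs1 and 1 each to Ptgs2, Hpgd and Ptger3. The 8 calls fell to between 2 and 4 when any of S1, S2, S9 or S10 was left out. Between the 3-day treatments, 17 peaks were higher with forskolin (16.3%) and 8 with rosiglitazone (7.69%), against 12.9% and 8.84% of all peaks; without S9 the 25 calls became 16. The comparisons of forskolin and of rosiglitazone with control use the same 2 control libraries.

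Between the forskolin times, 15 peaks fell from 4 hours to 3 days (14.4%) and 2 rose (1.92%), against 6.78% and 4.34% of all peaks. Of the 15, 6 each were peaks of Ptgs1 and Ptgs2, 2 of Ptgis and 1 of Hpgd. The 17 calls became 9 without S3, 10 without the other 4-hour library S4 and 11 without S7. From 4 hours to 1 day 2 rose and 3 fell, against 5.57% of all peaks called in either direction, and from 1 to 3 days 1 peak fell, against 0.187%. The 5 calls from 4 hours to 1 day became 0 or 1 when any of S3 to S6 was left out.

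Summed over all peaks of a gene, 3 members rose and 1 fell at 4 hours, against 12.1% of all tested genes that rose and 22.7% that fell. Ptgs1, Ptgs2 and Ptges rose and Ptgds fell. The Ptgs2 test shares its controls with the 1-day value known when the genes were chosen. At 1 day 6 rose and 1 fell, against 9.37% and 28.2%; the 6 include Ptgs2, whose value was known beforehand. Without S2 that became 2 and 1, and without S6 3 and 1. At 3 days Ptgs1 and Ptges rose and no member fell, against 5.23% and 10.2%, and neither was called without S2. With rosiglitazone Ptger3 rose and Ptgds fell, against 2.37% and 5.00%, and without S2 or without S10 neither was called. The median change of the 10 members was 0.24 at 4 hours, 0.29 at 1 day, 0.10 at 3 days and 0.02 with rosiglitazone, and that of all 17088 genes −0.12, −0.13, −0.10 and −0.05. Under library size alone the median of all genes was −0.02 at 4 hours and 0.02 at 1 day, and no called change of a member reversed.

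**Figure D2:**
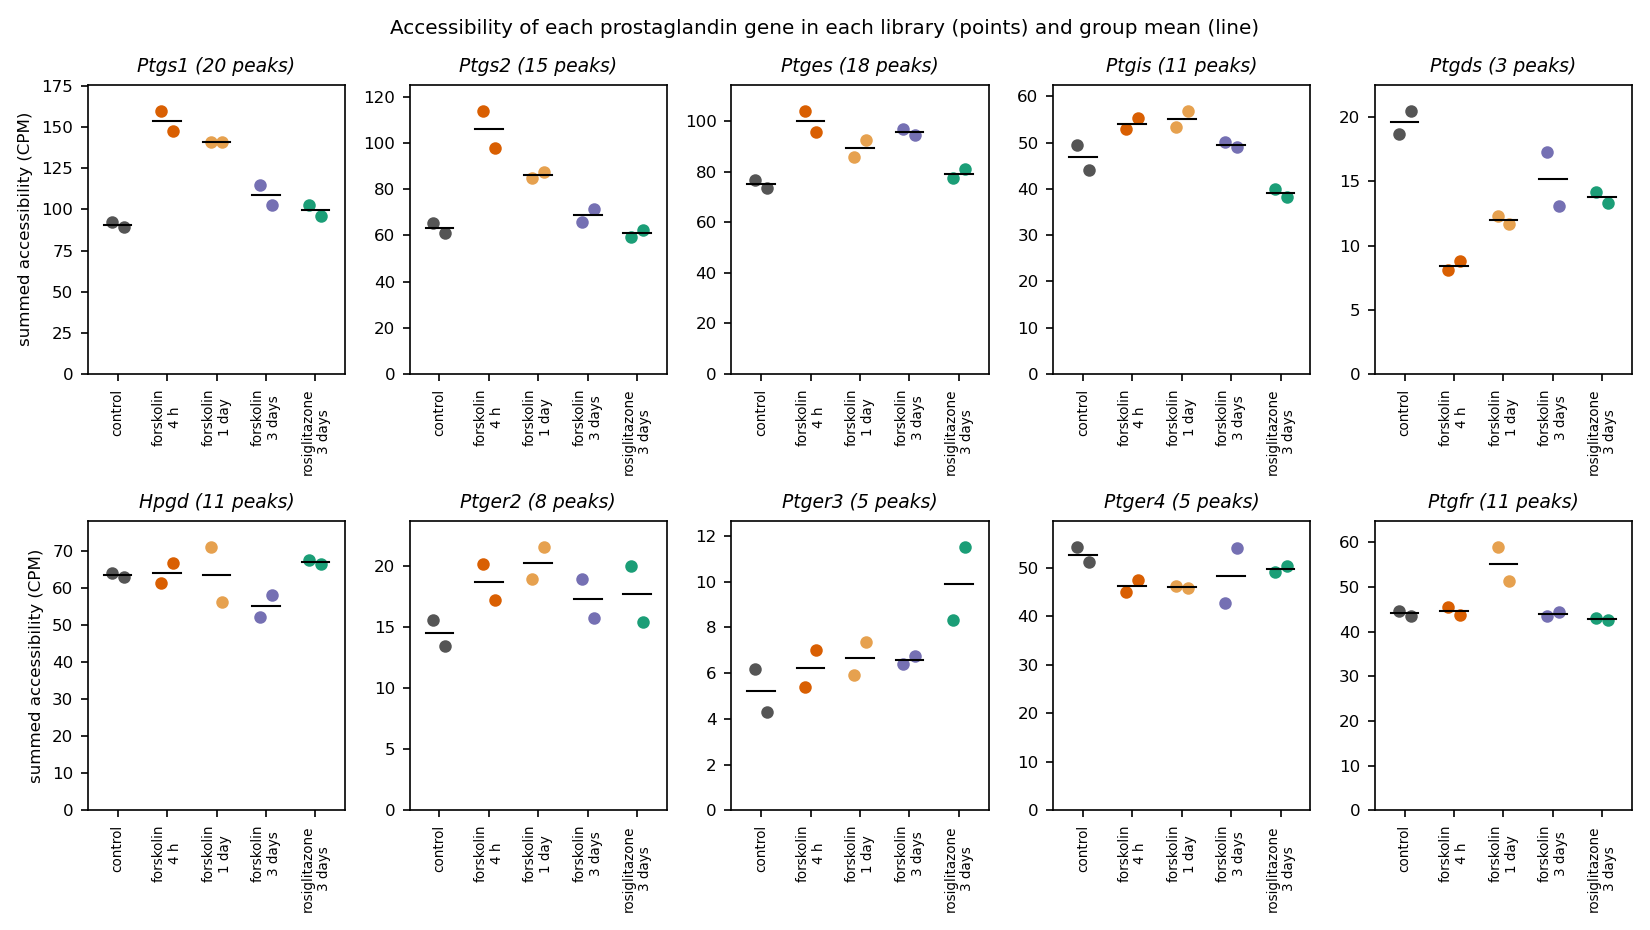
Summed accessibility (CPM, axes from 0) of each of the 10 genes in each of the 10 libraries (points), with the mean of each group of 2 (line). The 4-hour libraries lie above both controls for Ptgs1, Ptgs2 and Ptges and below them for Ptgds, and rosiglitazone stands highest for Ptger3. They also lie above both controls for Ptgis and Ptger2 and below them for Ptger4, where the 4-hour change was not called.

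Ptgs1 encodes the cyclooxygenase usually called constitutive. Its gene (gene 19224, chromosome 2, 36216742 to 36258593) had 20 peaks, 10 inside and 10 outside, and their sum was 92.5 and 89.2 CPM in the control libraries. It reached 160 and 148 CPM at 4 hours and 141 in both 1-day libraries, and stood at 115 and 103 at 3 days and 103 and 96.1 with rosiglitazone. All 6 forskolin libraries lay above both controls, and the 3-day libraries below all the earlier ones. The rise was 1.7-fold at 4 hours (log2 0.76, SE 0.076, adjusted p = 2.67e-07) and 1.55-fold at 1 day (0.63, SE 0.076, adjusted p = 7.69e-06). At 3 days it was 1.2-fold (0.27, SE 0.077, adjusted p = 0.0243), a call lost without S1 (adjusted p = 0.0652), without S2 (0.177) or without S7 (0.177). With rosiglitazone the change was 0.13 (SE 0.077, adjusted p = 0.323).

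The Ptgs1 rise was spread over the locus. At 4 hours 6 of its 10 inside peaks and 7 of its 10 outside peaks rose, and 1 outside peak fell. Of the 20 peaks, 5 lay in or nearer to Olfr334-ps1, which is not protein-coding. The start-site peak (chromosome 2, 36230192 to 36230751), which holds most of the printed window, was at 5.55 and 4.62 CPM in control, 10.2 and 7.55 at 4 hours, 10.8 and 9.37 at 1 day, 8.19 and 7.52 at 3 days and 6.81 and 6.18 with rosiglitazone. Every treated library lay above both controls there. The change was 0.81 at 4 hours (SE 0.22, adjusted p = 0.00246; 0.0671 without S2 and 0.107 without S3), 1.00 at 1 day (SE 0.21, adjusted p = 0.000234) and 0.64 at 3 days (SE 0.22, adjusted p = 0.039). The 3-day call was lost without S1, S2 or S7 (adjusted p = 0.0605, 0.286 and 0.197).

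The clearest transient of Ptgs1 was a peak inside the gene 13 kb past the start (chromosome 2, 36243074 to 36243753). Its level was 5.55 and 5.86 CPM in control, 17.3 and 16.5 at 4 hours, 12.7 and 14.1 at 1 day, 7.31 and 5.38 at 3 days, and 3.17 and 4.2 with rosiglitazone. The 3-day libraries overlapped the controls and the rosiglitazone libraries lay below them. It rose by 1.56 at 4 hours (SE 0.19, adjusted p = 5.15e-10) and 1.23 at 1 day (SE 0.19, adjusted p = 1.1e-06). The change from 4 hours to 3 days was −1.40 (SE 0.18, adjusted p = 3.37e-08), and from 1 to 3 days it was the 1 member peak called, at −1.06 (SE 0.18, adjusted p = 0.00109; 0.0753 without S6 and 0.193 without S8). A broad peak 1.11 kb past the gene's end (chromosome 2, 36259246 to 36260162) was more open at the outset, at 19.8 and 20.1 CPM in control. At 4 hours it stood at 36.5 and 33.5 CPM, after 1 day at 29.2 and 30.4, and after 3 days at 25 and 19.9. Its rise at 4 hours was 0.81 (SE 0.13, adjusted p = 1.3e-06), and a smaller peak next to it (chromosome 2, 36260249 to 36260536) rose by 1.55 (SE 0.32, adjusted p = 8.1e-05).

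Another Ptgs1 peak, 4.46 kb past the start (chromosome 2, 36234567 to 36235205), was highest at 1 day. It was at 2.83 and 2.06 CPM in control, 4.15 and 4.89 at 4 hours, 8.21 and 6.47 at 1 day, 5.19 and 4.59 at 3 days, and 1.79 and 2.84 with rosiglitazone. It rose by 1.60 at 1 day (SE 0.28, adjusted p = 9.62e-06). The rise at 4 hours (0.90, SE 0.30, adjusted p = 0.0141) was lost without S2 (0.188) or S4 (0.104), and that at 3 days (1.02, SE 0.30, adjusted p = 0.0118) without S2 (0.188) or S7 (0.101). It was 1.07 higher after 3 days of forskolin than of rosiglitazone (SE 0.28, adjusted p = 0.00277; 0.102 without S9). A peak 22.7 kb past the gene, chosen after its values were seen, rose in all 4 treatments, by 2.12, 1.64 and 1.45 with forskolin from 4 hours to 3 days and 1.85 with rosiglitazone (adjusted p = 6.47e-05, 0.00374, 0.0215 and 0.00362). Its control pair held 17 counts in all. Peaks inside the gene 9.32 and 7.79 kb upstream of the start, also chosen after their values were seen, rose in all 4 treatments as well. Their control pairs held 137 and 124 counts, and the rosiglitazone changes were smaller than that 1.85, at 0.67 and 0.71 (edgeR adjusted p = 0.0207 and 0.0181). After 3 days of forskolin the changes were 0.54 and 0.91 (edgeR adjusted p = 0.0495 and 0.00061), the first only just called.

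Ptgs2 encodes the inducible cyclooxygenase. Of its 15 peaks (gene 19225, chromosome 1, 150100031 to 150108234) 1 lay inside the gene and 14 outside, and 12 lay in or nearer to the non-coding genes Ptgs2os and Gm9687. Their sum was 65.3 and 61.1 CPM in control, 114 and 97.9 at 4 hours, 84.8 and 87.7 at 1 day, 65.9 and 71.5 at 3 days, and 59.5 and 62.5 with rosiglitazone. The 4-hour and 1-day libraries stood apart from both controls, and by 3 days the lower library was level with the higher control. The rise at 4 hours was 1.68-fold (0.75, SE 0.091, adjusted p = 2.73e-06) and was kept with any 1 library left out. The 1-day value, 1.37-fold above control (0.45, SE 0.091), was known when the family was chosen and carries no test here. The 4-hour tests of Ptgs2 use the same control libraries, so they are not independent of that choice. At 3 days the change was 0.12 (SE 0.093, adjusted p = 0.38) and with rosiglitazone −0.05 (SE 0.093, adjusted p = 0.786).

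The peak over the Ptgs2 start (chromosome 1, 150099511 to 150100380) covers the whole printed window, with its TTGCGCAA, TGACG and CACGTG letters. It was at 17.8 and 14.7 CPM in control, 27.5 and 25.9 at 4 hours, 19.9 and 21.6 at 1 day, 16.6 and 20.9 at 3 days, and 13.7 and 14.9 with rosiglitazone. The 4-hour libraries were the highest, and the 3-day pair overlapped the controls. The rise at 4 hours was 0.72 (SE 0.14, adjusted p = 3.84e-05), and from 4 hours to 3 days the change was −0.52 (SE 0.14, adjusted p = 0.00624; 0.0963 without S3 and 0.151 without S7). The most open of the distal peaks per length, 43.3 kb past the gene's end (chromosome 1, 150151291 to 150151756), was at 13.4 and 14.6 CPM in control and 30.3 and 21.4 at 4 hours. It stood at 22.5 and 21.6 at 1 day, 16.9 and 14.6 at 3 days, and 10.6 and 12.8 with rosiglitazone. That was a rise of 0.88 at 4 hours (SE 0.15, adjusted p = 2.69e-06), and its 4-hour pair spread most, with S3 well above S4.

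The single peak inside Ptgs2, 6.71 kb past the start (chromosome 1, 150106540 to 150106943), followed another course. It was at 0.303 and 1.16 CPM in control, 2.57 and 3.08 at 4 hours, 0.894 and 2.24 at 1 day, 1.12 and 1.74 at 3 days, and 3.92 and 3.4 with rosiglitazone. Rosiglitazone gave the highest pair, the 4-hour pair came next, and the 1-day and 3-day pairs overlapped the controls. It rose by 2.25 with rosiglitazone (SE 0.45, adjusted p = 0.000488; 0.0514 without S1) and by 1.88 after 4 hours of forskolin (SE 0.46, adjusted p = 0.00103; 0.059 without S1). After 3 days it was lower with forskolin than with rosiglitazone (−1.37, SE 0.39, adjusted p = 0.00647; 0.124 without S7 and 0.0586 without S9). The control pair held 17 counts in all, so these folds are imprecise. With peaks inside the gene alone, Ptgs2 was therefore called higher with rosiglitazone (2.24, adjusted p = 0.00842) where the sum of all its peaks was not. Further peaks 0.455 and 18.1 kb past the gene's end rose at 4 hours by 2.06 (SE 0.47, adjusted p = 0.000364) and 1.99 (SE 0.53, adjusted p = 0.00251; 0.0566 without S3), and at 3 days they were at −1.47 and −2.50 against 4 hours (adjusted p = 0.0124 and 0.000609). The first of these was lost without S3, S4 or S7 (adjusted p = 0.0738, 0.0819 and 0.145).

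**Figure D3:**
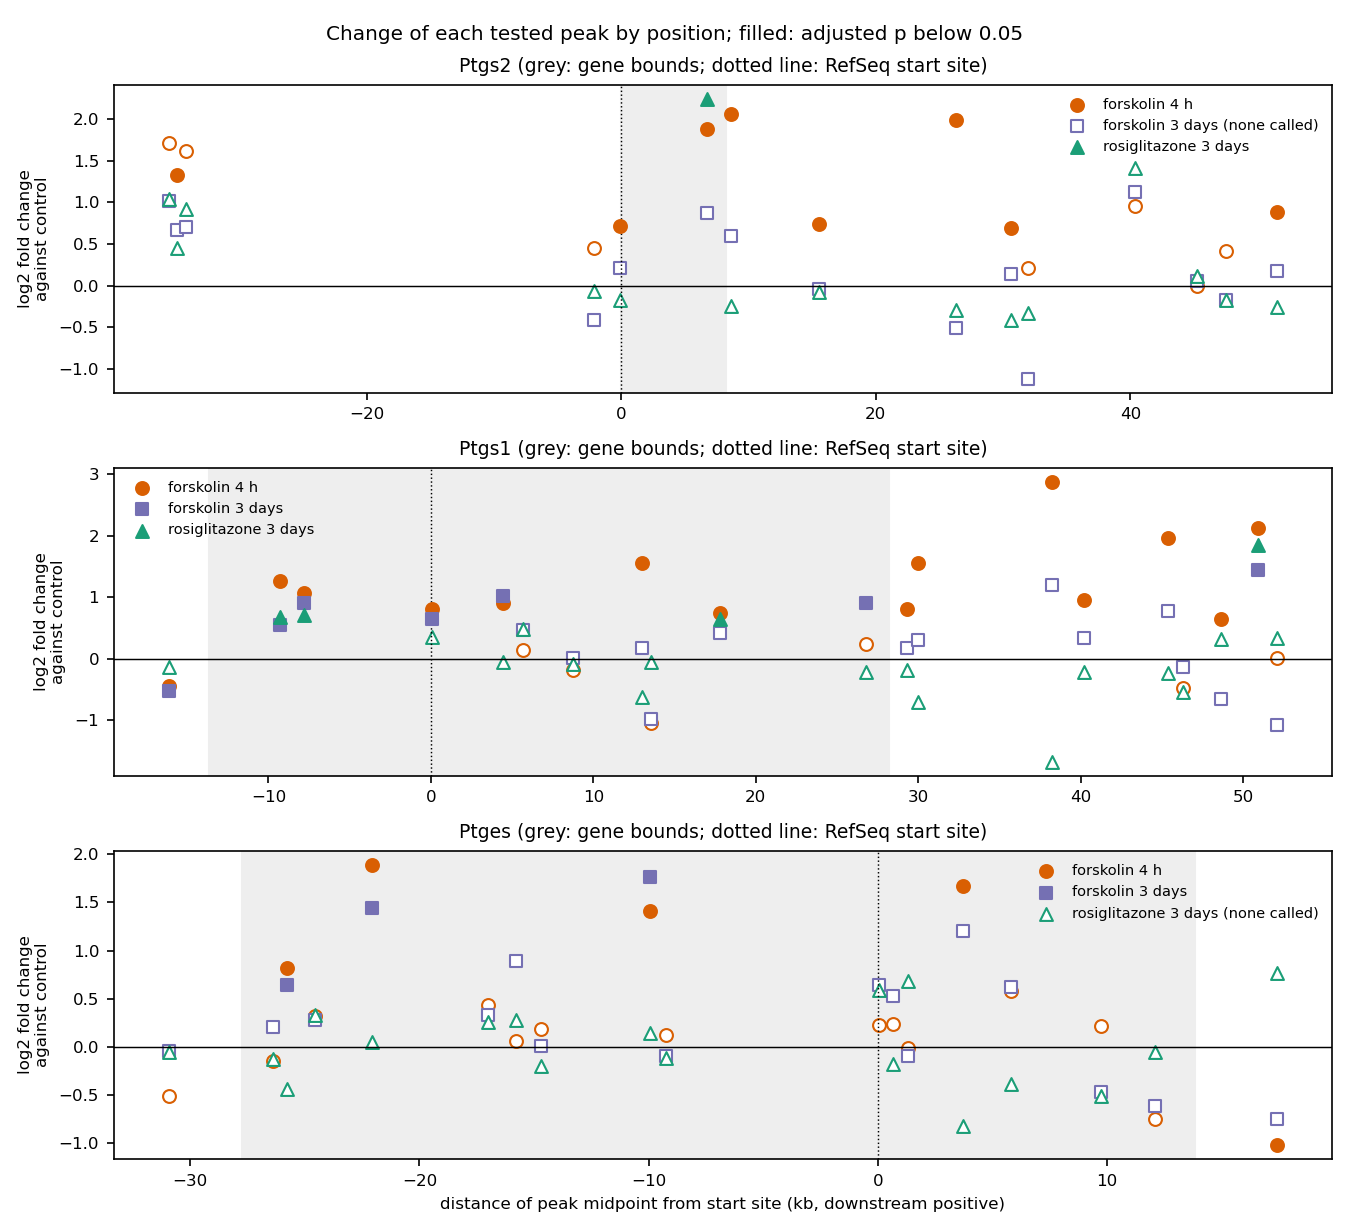
Log2 fold change against control (vertical) of each tested peak of Ptgs2, Ptgs1 and Ptges by distance of its midpoint from the RefSeq start site (horizontal, kb, downstream positive), for 4 hours of forskolin (circles), 3 days of forskolin (squares) and rosiglitazone (triangles), filled where adjusted p was below 0.05, with the gene bounds in grey. The 4-hour circles lie above zero along most of the Ptgs1 and Ptgs2 loci, and the rosiglitazone triangle inside Ptgs2 stands at 2.25.

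The terminal synthases did not move together: Ptges rose, Ptgis was split between its inside and outside peaks, and Ptgds fell. Ptges encodes microsomal prostaglandin E synthase 1, which makes PGE2 and often acts with Ptgs2. Its 18 peaks (gene 64292, chromosome 2, 30889471 to 30931020), 16 of them inside, summed to 76.5 and 73.4 CPM in control, 104 and 95.7 at 4 hours, 85.8 and 92.5 at 1 day, 97 and 94.6 at 3 days, and 77.4 and 80.9 with rosiglitazone. All forskolin libraries lay above all control and rosiglitazone libraries. The rise was 0.41 at 4 hours (SE 0.082, adjusted p = 0.000617), 0.25 at 1 day (SE 0.081, adjusted p = 0.0187) and 0.36 at 3 days (SE 0.082, adjusted p = 0.00643). The 1-day call was lost without S2 (adjusted p = 0.141) or S6 (0.147), and the 3-day call without S2 (0.09) or with only those 2 groups fitted (0.0644). At 3 days forskolin exceeded rosiglitazone by 0.28 (SE 0.080, adjusted p = 0.0194; 0.149 without S9, 0.0711 without S10 and 0.0944 with only those 2 groups fitted).

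In Ptges 1 peak carried much of the change. It lies inside the RefSeq bounds 22.1 kb upstream of the start used here (chromosome 2, 30925188 to 30925511). Its level was 3.23 and 4.62 CPM in control, 13.3 and 16.2 at 4 hours, 9.55 and 10.3 at 1 day, 11.4 and 10.1 at 3 days, and 4.34 and 3.89 with rosiglitazone. All 6 forskolin libraries lay above the other 4. The rise was 1.89, 1.32 and 1.44 at the 3 times (SE 0.21, 0.21 and 0.22; adjusted p = 1.28e-11, 1.79e-06 and 6.34e-07) and the change with rosiglitazone 0.05 (SE 0.24, adjusted p = 0.942). Forskolin exceeded rosiglitazone by 1.39 at 3 days (SE 0.20, adjusted p = 1.09e-07). A peak 25.8 kb upstream (chromosome 2, 30928930 to 30929257) rose at 4 hours by 0.82 (SE 0.22, adjusted p = 0.00272; 0.101 without S2), and a peak 3.73 kb past the start (chromosome 2, 30899378 to 30899753) by 1.67 (SE 0.43, adjusted p = 0.00148; 0.0581 without S3). Against rosiglitazone at 3 days these stood at 1.08 (SE 0.22, adjusted p = 0.000144) and 2.01 (SE 0.46, adjusted p = 0.00052). The start-site peak (chromosome 2, 30903089 to 30903384) was at 2.02 and 2.72 CPM in control and between 2.36 and 3.83 elsewhere, with no call. In the other direction, a peak 3.57 kb past the gene's end (chromosome 2, 30885644 to 30886157) was lower with 3 days of forskolin, at 1.47 and 1.58 CPM, than with rosiglitazone, at 3.92 and 4.82 (−1.52, SE 0.36, adjusted p = 0.000846).

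Ptgis, prostacyclin synthase, had 11 peaks (gene 19223, chromosome 2, 167203194 to 167252150), of which 10 were tested. The sum was 49.6 and 44.1 CPM in control, 52.9 and 55.4 at 4 hours, 53.5 and 56.9 at 1 day, 50.1 and 49 at 3 days, and 40 and 38.2 with rosiglitazone. Rosiglitazone gave the lowest pair. The change was 0.21 at 4 hours (SE 0.094, adjusted p = 0.0832) and 0.24 at 1 day (SE 0.093, adjusted p = 0.0467), the latter lost without S2, S5 or S6 (adjusted p = 0.364, 0.0921 and 0.21). At 3 days the gene was higher with forskolin than with rosiglitazone (0.34, SE 0.094, adjusted p = 0.014; 0.0562 without S9, 0.127 without S10). These sums hide a split by place: at 4 hours 4 of the 5 outside peaks rose and none fell, while 2 of the 5 tested inside peaks fell and none rose. With inside peaks alone the gene fell at 4 hours (−0.39, adjusted p = 0.0104).

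The strongest outside peak of Ptgis lay 11.4 kb from the gene (chromosome 2, 167263279 to 167263895). It was at 4.94 and 5.69 CPM in control, 13.8 and 15.6 at 4 hours, 13.7 and 13.9 at 1 day, 10.5 and 11.1 at 3 days, and 5.44 and 4.08 with rosiglitazone. The 6 forskolin libraries all lay above the other 4. The rise was 1.46, 1.37 and 1.01 (SE 0.19, 0.19 and 0.20; adjusted p = 3.56e-09, 5.32e-08 and 0.000129), and forskolin exceeded rosiglitazone by 1.18 at 3 days (SE 0.19, adjusted p = 1.37e-06). Peaks 16.8, 19.4 and 21.3 kb from the gene rose at 4 hours by 1.63, 1.09 and 1.25 (adjusted p = 0.00251, 0.00529 and 0.0221), each lost without S2 and without 1 of the 4-hour libraries. The inside peaks that fell, chosen after their values were seen, were the most open one of the gene (chromosome 2, 167231969 to 167233237; −0.41) and a small one near an annotated end (chromosome 2, 167250795 to 167251095; −1.60). The peak at that end (chromosome 2, 167251264 to 167251442) held 10 counts in the control pair and was not tested.

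Ptgds encodes lipocalin-type prostaglandin D synthase, which makes PGD2 and is expressed in fat. No peak lay inside its bounds (gene 19215, chromosome 2, 25466709 to 25470110) or over its start, so its value rests on 3 peaks upstream, all in or nearer to the non-coding gene Gm35287. Their sum was 18.7 and 20.5 CPM in control, 8.1 and 8.76 at 4 hours, 12.3 and 11.7 at 1 day, 17.3 and 13.1 at 3 days, and 14.2 and 13.3 with rosiglitazone. All treated libraries lay below both controls, the 4-hour pair lowest. It fell 2.32-fold at 4 hours (−1.22, SE 0.157, adjusted p = 5.85e-06) and 1.63-fold at 1 day (−0.71, SE 0.148, adjusted p = 0.00112), both kept with any 1 library left out. At 3 days the change was −0.35 (SE 0.148, adjusted p = 0.105). The fall with rosiglitazone (−0.51, SE 0.149, adjusted p = 0.038) was lost without S1, S2, S9 or S10 (adjusted p = 0.0884, 0.276, 0.158 and 0.168), with DESeq2 (0.0543) and with library size alone (0.0934).

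The 2 Ptgds peaks nearest the start are the ones that were called. The peak 3.42 kb upstream (chromosome 2, 25472841 to 25473503) was at 11.7 and 12.9 CPM in control, 5.93 and 5.8 at 4 hours, 7.37 and 7.28 at 1 day, 10.5 and 7.12 at 3 days, and 7.84 and 5.99 with rosiglitazone. It fell at 4 hours (−1.07, SE 0.20, adjusted p = 1.76e-05) and with rosiglitazone (−0.84, SE 0.20, adjusted p = 0.00357; 0.0659 without S2 and 0.127 without S10). The peak 8.74 kb upstream (chromosome 2, 25478302 to 25478685) was at 4.14 and 5.53 CPM in control, 0.79 and 1.57 at 4 hours, 3.07 and 2.29 at 1 day, 4.01 and 3.88 at 3 days, and 4.47 and 5.5 with rosiglitazone. Here the 4-hour pair was below all others and the rosiglitazone pair overlapped the controls. It fell at 4 hours (−2.02, SE 0.34, adjusted p = 1.55e-06), was 0.04 from control with rosiglitazone (SE 0.28, adjusted p = 0.961), and was 1.72 higher at 3 days than at 4 hours (SE 0.34, adjusted p = 0.000148). That the 2 peaks differ in their response to rosiglitazone was not tested.

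**Figure D4:**
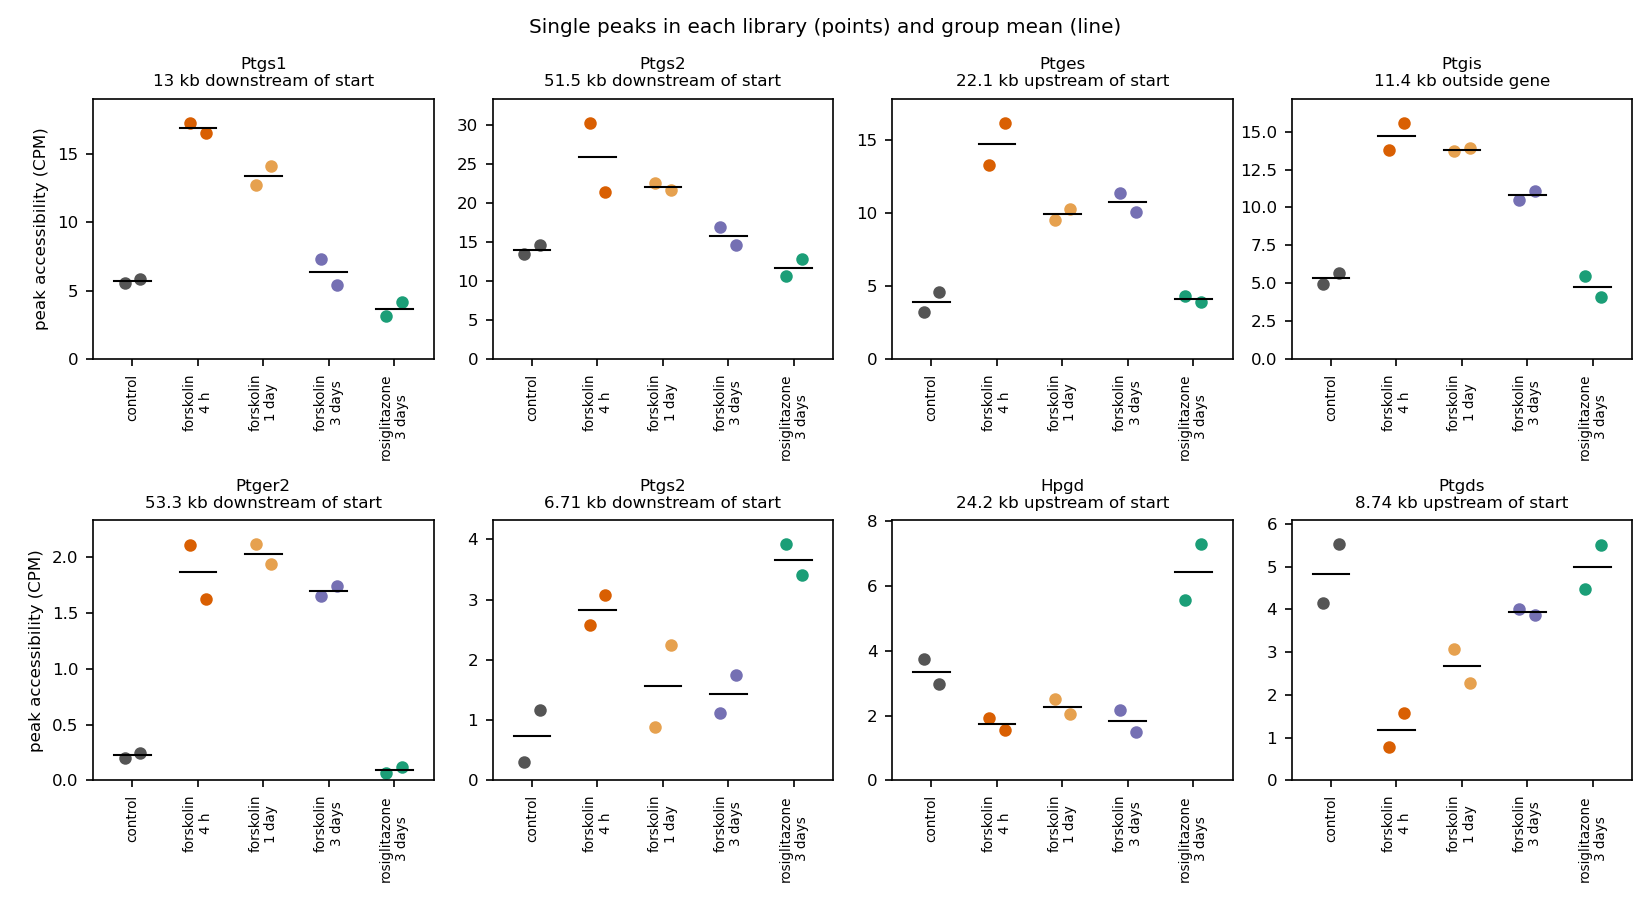
Accessibility (CPM, axes from 0) of 8 single peaks in each library (points) with group means (lines), titled by gene and distance. The Ptges, Ptgis and Ptger2 peaks are high in all 6 forskolin libraries, the Ptgs2 gene-body and Hpgd peaks are highest with rosiglitazone, and the Ptgds peak is lowest at 4 hours.

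Hpgd encodes 15-hydroxyprostaglandin dehydrogenase, the main enzyme of prostaglandin breakdown. Its 11 peaks (gene 15446, chromosome 8, 56294552 to 56321046), 3 inside and 8 outside, summed to 64.1 and 63 CPM in control, 61.3 and 66.6 at 4 hours, 70.9 and 56.1 at 1 day, 52.1 and 58.1 at 3 days, and 67.4 and 66.5 with rosiglitazone. The 4-hour and 1-day pairs spanned the controls. No comparison called the sum: the change at 4 hours was 0.01 (SE 0.103), and forskolin against rosiglitazone at 3 days −0.28 (SE 0.102, adjusted p = 0.0611). With peaks within 10 kb alone it fell at 4 hours (−0.50, adjusted p = 0.00933); its most open peak lies farther out. Its peaks moved in different directions. The peak 24.2 kb upstream (chromosome 8, 56269839 to 56270774) was at 3.73 and 2.97 CPM in control, 1.91 and 1.57 at 4 hours, 2.51 and 2.04 at 1 day, 2.18 and 1.5 at 3 days, and 5.57 and 7.29 with rosiglitazone. All forskolin libraries lay below the controls and both rosiglitazone libraries above. It fell at 4 hours (−0.94, SE 0.34, adjusted p = 0.0264) and rose with rosiglitazone (0.95, SE 0.29, adjusted p = 0.0343), calls lost without S1 (0.161 and 0.0777), without either treated library and, for the rise, without S2 (0.255). Both calls were also lost with DESeq2 (adjusted p = 0.0631 and 0.128), and the fall with library size alone (edgeR adjusted p = 0.0543). The direct comparison held in each alternative run: −1.78 for 3 days of forskolin against rosiglitazone (SE 0.31, adjusted p = 4.92e-06).

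The peak 9.38 kb upstream of Hpgd (chromosome 8, 56284796 to 56285555) fell from 18.7 and 15 CPM to 9.02 and 10.9 at 4 hours (−0.75, SE 0.17, adjusted p = 0.00026) and 11.3 and 9.42 at 1 day (−0.69, SE 0.16, adjusted p = 0.000943; 0.051 without S1). With rosiglitazone it was at 16.4 in both libraries. The most open peak of the gene, 16 kb upstream (chromosome 8, 56278109 to 56278992), was at 31.1 CPM in both controls and 37.5 and 43.1 at 4 hours (0.38, SE 0.13, adjusted p = 0.0182; 0.0791 without S1, 0.0977 without S2 and 0.225 without S4). A peak 24.9 kb past the gene (chromosome 8, 56345650 to 56346232) was lower after 3 days of forskolin than of rosiglitazone, at 2.59 and 1.42 against 6.26 and 4.82 CPM (−1.42, SE 0.31, adjusted p = 0.000364). The start-site peak (chromosome 8, 56294454 to 56294723) stayed between 0.725 and 1.91 CPM with no call.

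Among the PGE2 receptors, forskolin opened distal peaks of Ptger2, rosiglitazone and 4 hours of forskolin opened the start of Ptger3, and Ptger4 had no called peak. Ptger2 encodes EP2, a receptor that raises cAMP. Its 8 peaks (gene 19217, chromosome 14, 44988111 to 45003820) summed to 15.6 and 13.4 CPM in control, 20.1 and 17.2 at 4 hours, 18.9 and 21.5 at 1 day, 18.9 and 15.7 at 3 days, and 20 and 15.4 with rosiglitazone. Forskolin libraries were all above the controls, the lowest at 3 days only just. The sum rose at 1 day (0.49, SE 0.153, adjusted p = 0.0162; 0.193 without S2 and 0.124 without S6), while at 4 hours it was 0.36 (SE 0.156, adjusted p = 0.0728). Without its 2 farthest peaks, which lie nearer to Gm21010, the 4-hour change was 1.13 (adjusted p = 0.00028) and that between the 3-day treatments 0.68 (adjusted p = 0.0175) in place of −0.02.

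A small peak 37.6 kb past the Ptger2 gene (chromosome 14, 45041265 to 45041513) was nearly silent outside forskolin. It was at 0.202 and 0.248 CPM in control, 2.11 and 1.63 at 4 hours, 2.12 and 1.94 at 1 day, 1.65 and 1.74 at 3 days, and 0.0688 and 0.124 with rosiglitazone. In counts that is 5 in the control pair, 59, 76 and 50 in the forskolin pairs and 3 in the rosiglitazone pair. The rise was 3.00, 3.12 and 2.86 (SE 0.65, 0.63 and 0.66; adjusted p = 0.000166, 0.000132 and 0.00114). At 3 days the ratio of forskolin to rosiglitazone, from 50 against 3 counts, was 17.3 (95% exact interval 5.59 to 86.7, for counting error only), and its adjusted p was 8.02e-06. A peak 2.1 kb past the gene (chromosome 14, 45005662 to 45006177) rose at all 3 times as well, by 1.50, 2.01 and 1.61 (adjusted p = 0.00146, 1.85e-05 and 0.00161). Its 4-hour call was lost without S2 or S3 (0.0812 and 0.247) and its 3-day call without S2 (0.0951). A peak 1.74 kb upstream (chromosome 14, 44986306 to 44986428) held 2 counts in the control pair and 40 in the 4-hour pair, a ratio of 13.9 (3.6 to 119; adjusted p = 0.00673, and 0.139 without S2). The start-site peak (chromosome 14, 44988003 to 44988766) ranged from 1.49 to 3.77 CPM with no call, and the control pair alone was at 3.43 and 1.49.

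Ptger3 encodes EP3, which lowers cAMP and is abundant in adipocytes. Its 5 peaks (gene 19218, chromosome 3, 157566821 to 157644758) were weak, at 6.16 and 4.29 CPM in control, 5.4 and 7.01 at 4 hours, 5.92 and 7.38 at 1 day, 6.42 and 6.73 at 3 days, and 8.33 and 11.5 with rosiglitazone. Only the rosiglitazone pair lay well above the controls, and its libraries also differed most. The sum rose 1.93-fold with rosiglitazone (0.95, SE 0.232, adjusted p = 0.0151), a call lost without S2 (0.248) or S10 (0.165). Forskolin stood at 0.27, 0.37 and 0.35 with no call, and forskolin against rosiglitazone at −0.60 (SE 0.214, adjusted p = 0.0565). The start-site peak (chromosome 3, 157566722 to 157567187) was at 2.42 and 1.49 CPM in control, 3.69 and 4.23 at 4 hours, 2.96 and 3.16 at 1 day, 3.3 and 3.32 at 3 days, and 3.99 and 5.31 with rosiglitazone. Every treated library was above both controls. It rose at 4 hours (1.04, SE 0.33, adjusted p = 0.00976; 0.204 without S2 and 0.0712 without S4) and with rosiglitazone (1.28, SE 0.32, adjusted p = 0.00645; 0.178 without S2 and 0.125 without S10). The adipocyte marker sum was also highest with rosiglitazone (836 to 839 CPM), though only 2 of the 7 marker genes were called higher there. The part of this sum in the Ptger3 rise was not tested.

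Ptger4 encodes EP4, which like EP2 raises cAMP. Its 5 peaks (gene 19219, chromosome 15, 5233399 to 5244187) summed to 54.2 and 51.1 CPM in control, 45 and 47.4 at 4 hours, 46.2 and 45.8 at 1 day, 42.7 and 54 at 3 days, and 49.2 and 50.4 with rosiglitazone. The 4-hour, 1-day and rosiglitazone pairs lay below the controls by little, and the higher 3-day library lay between them. The change at 4 hours was −0.19, with an interval of 2 SE from −0.39 to 0.02 (adjusted p = 0.163), and with rosiglitazone −0.08 (−0.29 to 0.13; adjusted p = 0.683). Without S8 the 3-day change was called (adjusted p = 0.0286), and with all libraries it was −0.13 (adjusted p = 0.405). Its start-site peak (chromosome 15, 5243937 to 5244856), which covers the whole printed window, made up most of this and ranged from 33.8 to 44.6 CPM, both ends in the 3-day pair. Its change was −0.21 at 4 hours (SE 0.13, adjusted p = 0.213).

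Ptgfr encodes the PGF2α receptor FP. Its 11 peaks (gene 19220, chromosome 3, 151798610 to 151837528), of which 4 lie inside the gene Gm31596, summed to 44.6 and 43.6 CPM in control, 45.6 and 43.7 at 4 hours, 58.9 and 51.3 at 1 day, 43.6 and 44.4 at 3 days, and 43.1 and 42.6 with rosiglitazone. Only the 1-day pair stood apart. It rose then by 0.32 (SE 0.095, adjusted p = 0.0114; 0.0925 without S2 and 0.173 without S5), and the other changes were between −0.04 and 0.02. Single peaks also moved at 4 hours, when 4 rose, 3 of them inside the gene, and 1 fell. Inside the gene 2 peaks rose at 1 day. Both were also called higher at 4 hours. The change then was 1.15 (adjusted p = 0.049) at 8.28 kb past the start and 1.90 (adjusted p = 0.0151) at 14.8 kb. At 3 days the peak at 8.28 kb stood at 1.60 (adjusted p = 0.00942). Each of these 4-hour and 3-day calls was lost in some runs with 1 library left out. The peak 8.28 kb past the start (chromosome 3, 151829044 to 151829453) was at 1.01 and 0.66 CPM in control and 3.74 and 3.67 at 1 day (2.16, SE 0.43, adjusted p = 8.25e-05), and the peak 14.8 kb past it (chromosome 3, 151822573 to 151822982) at 0.404 and 0.33 against 2.23 and 1.88 (2.47, SE 0.60, adjusted p = 0.00133). Outside, the peak 46.7 kb upstream (chromosome 3, 151883995 to 151884456) fell at 3 days, from 3.53 and 2.97 to 0.884 and 0.95 CPM (−1.82, SE 0.41, adjusted p = 0.0009), and was at 2.27 and 3.58 with rosiglitazone. The peak 2.51 kb upstream (chromosome 3, 151839974 to 151840107) fell at 4 hours, from 2.72 and 4.62 to 1.25 and 1.45 CPM (−1.45, SE 0.36, adjusted p = 0.000997; 0.113 without S2). At the start of Ptgfr, the peak (chromosome 3, 151836551 to 151837630) was open throughout, at 18.8 to 31.1 CPM, with no call.

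**Figure D5:**
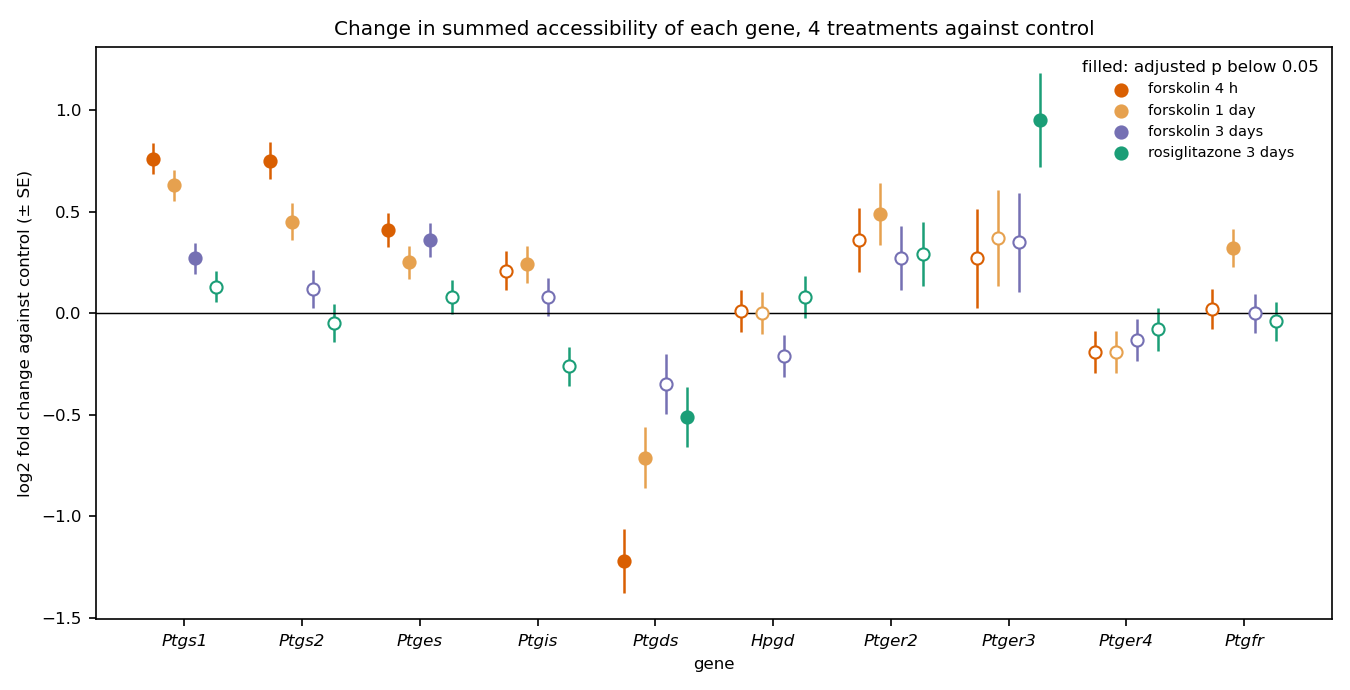
Log2 fold change in summed accessibility (± SE) of each gene in the 4 treatments against control, filled where adjusted p was below 0.05 (the 1-day value of Ptgs2 was known when the genes were chosen). Ptgs1, Ptgs2 and Ptges stand above zero at 4 hours, Ptgds stands at −1.22, and the rosiglitazone value of Ptger3 is 0.95.

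Start-site peaks differed widely in openness per length, as mean CPM per kb of peak over the 10 libraries: 42.3 at Ptger4, 22.2 at Ptgs2, 21.6 at Ptgfr, 13.7 at Ptgs1, 10.6 at Ptges, 7.27 at Ptger3, 4.48 at Hpgd, 3.35 at Ptger2 and 1.61 at the annotated end of Ptgis. Ptgs2 and Ptgfr are next to each other in this order and their CPM ranges overlap (13.7 to 27.5 and 18.8 to 31.1), though the Ptgfr peak is wider. Whether this order goes with the size of the response was not tested. Ptger4, the most open, had no call. Ptger2 had one of the least open starts, and its large distal changes rested on few control counts.

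Beside the members, 22 other genes of prostanoid metabolism were looked at, from a list made with results of these data known, and all were tested. At 4 hours 5 rose and 7 fell, against 12.1% and 22.7% of all genes, with a median of −0.14 against −0.12. Pla2g4a, Mgll, Slco2a1, Abcc4 and Ptgir rose, and Plaat3, Ptges2, Ptges3, Akr1b3, Cbr1, Ptgdr2 and Tbxa2r fell. At 1 day 4 rose and 4 fell, against 9.37% and 28.2%. At 3 days 1 rose and 3 fell, against 5.23% and 10.2%, and with rosiglitazone 0 rose and 2 fell, namely Ptges2 and Ptges3, against 2.37% and 5.00%. Between the 3-day treatments Pla2g4a was higher with forskolin and Tbxa2r with rosiglitazone; among members 2 genes were higher with forskolin, Ptges and Ptgis, against 8.36% of all genes, and 0 with rosiglitazone, against 8.39%. The 3 with the smallest joint p were Pla2g4a, Slco2a1 and Tbxa2r, the last level with Ptger1 to the digits given (edgeR adjusted p = 0.00205 for both). Ptger1, which encodes the PGE2 receptor EP1, was at 11.6 and 13.6 CPM in control, 9.68 and 9.42 at 4 hours, 17 and 15.4 at 1 day, 16 and 14.7 at 3 days, and 12.7 and 15.2 with rosiglitazone. It was 0.76 higher at 1 day than at 4 hours (SE 0.146, adjusted p = 0.00338). Pla2g4a encodes cytosolic phospholipase A2, which frees arachidonic acid, and its next member gene is Ptgs2, 139 kb away. It was at 62.5 and 55.8 CPM in control, 99.1 and 97.7 at 4 hours, 88.9 and 80.7 at 1 day, 71.2 and 69.2 at 3 days, and 54.2 and 56.6 with rosiglitazone (0.74 at 4 hours, SE 0.088, adjusted p = 2.23e-06). Slco2a1, the prostaglandin transporter, rose from 151 and 149 to 203 and 191 CPM at 4 hours (0.40, SE 0.065, adjusted p = 9.62e-05). Tbxa2r, the thromboxane receptor, fell from 9.99 and 9.32 to 4.35 and 5.56 CPM (−0.96, SE 0.208, adjusted p = 0.00141).

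At gene level the course over forskolin was tested directly for each member. Between 4 hours and 3 days Ptgs1 and Ptgs2 fell and Ptgds rose, against 5.10% of all genes that fell and 3.59% that rose. Between 4 hours and 1 day 1 member was called, against 5.28% in either direction; it is Ptgs2, whose 1-day value was known beforehand, so nothing is read from it. From 1 to 3 days no member was called, against 0.0117% (2 genes of all), with Ptgs1 at −0.37 (adjusted p = 0.0504). With edgeR that count was 0 of 10 after adjustment and 4 at an unadjusted p below 0.05, and it became 1 with DESeq2 and 3 with library size alone or without S7. Over the 10 libraries, the genes on other chromosomes whose summed accessibility (log2 of CPM plus 1) most resembled that of Ptgs1, the member with the smallest joint p, were Cops7b (Pearson r = 0.985), Tmem247 (0.981) and Rbms3 (0.981). The libraries share their group, so r describes a common course over the 5 groups.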

How the data were processed

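ATAC-seq libraries of 5 groups of 2 were analysed, 10 in all. The authors deposited 1 table of raw read counts per peak for all libraries; per the submitters' processing notes, the tools named are deepTools, featureCounts, MACS2, Picard, SAMtools, Bowtie2 and fastp, and the builds GRCm38 and mm10. Columns name the group but not the replicate number.

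Members and lists were chosen with earlier results of these data known. Counts were tested with edgeR 4.0.16 (quasi-likelihood, robust, TMM, filterByExpr; R 4.3.3) in 1 fit over all libraries, per peak (118962 of 122984 tested) and per gene (counts summed over a gene's peaks; 17088 of 17206 tested), with Benjamini-Hochberg adjustment over all and a threshold of 0.05. An SE is the log2 change divided by the root of F. The residual degrees of freedom were 5, so precision is limited. The fit was tested on simulated data. Named peaks of a gene were the start-site peak and up to 4 further peaks with the smallest p in the joint test of the 4 treatments against control, plus those marked in the text as chosen after their values were seen. Alternatives were library size alone, trended offsets, DESeq2 1.42.0, no filter, only the groups compared, other peak-to-gene rules and leaving out each library. Within groups, counts of library pairs differed beyond sampling noise (chi-square per degree of freedom 2.19 to 3.35), so none was merged. Promoters came from RefSeq (GRCm38.p6).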

Additional observations from a re-analysis of the deposited data

Results flagged for a closer look

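Between treatment times, 4 differences in the effect of forskolin against the shared vehicle control stood out. The difference of the summed accessibility of Ptgs2 between 1 day and 4 hours was −0.30 on the log2 scale (SE 0.086). The 1-day value was known when the genes were chosen, so this is a description with no test. Ptgs2 was lower after 3 days than after 4 hours (−0.63, SE 0.088, adjusted p = 0.000112). Ptgs1 was also lower after 3 days than after 4 hours (−0.50, SE 0.074, adjusted p = 0.000188). Ptgds, whose accessibility was lowest at 4 hours, was 0.86 higher after 3 days than after 4 hours (SE 0.157, adjusted p = 0.00105). The calls at 3 days against 4 hours for Ptgs1, Ptgs2 and Ptgds were kept when any 1 of S3, S4, S7 or S8 was left out. Time in culture and time with forskolin cannot be told apart, because the labels give 1 vehicle group.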

How the results depend on the processing

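The counts rest on 2 libraries a group, and a peak's place near a gene is no proof that it acts on it. Of the 107 peaks, 26 lie in or nearer to a gene that is not protein-coding. No paired analysis was possible because the columns carry only the group and a running number, which is not the replicate number of the labels.

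Called member peaks numbered 47 at 4 hours (27 to 38 with 1 library left out), 27 at 1 day (20 to 24), 15 at 3 days (7 to 13; 9 with DESeq2), 8 with rosiglitazone (2 to 4; 4 with DESeq2) and 25 between the 3-day treatments (16 to 24). From 4 hours to 1 day they were 5 (0 to 1; 0 with DESeq2, 13 with only those 2 groups), from 4 hours to 3 days 17 (9 to 13; 9 with DESeq2), and from 1 to 3 days 1 (0 to 3; 2 with library size alone, 3 with trended offsets, 2 with no filter). With library size alone the 5 calls from 4 hours to 1 day were 4 up and 1 down, in place of 2 up and 3 down.

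Called member genes numbered 4 at 4 hours (4 to 4; 7 with peaks within 10 kb), 7 at 1 day (3 to 7; 3 with inside peaks, 4 with the nearest gene of any type), 2 at 3 days (0 to 4; 0 with only those 2 groups) and 2 with rosiglitazone (0 to 1; 1 each with library size alone, DESeq2 and the nearest gene of any type). Between the 3-day treatments they were 2 (0 to 4; 4 with library size alone, 2 of them up, 0 with only those 2 groups, 5 with the nearest gene of any type). From 4 hours to 1 day they were 1, Ptgs2, whose 1-day value was known beforehand (0 to 0; 3 with library size alone, 2 with trended offsets, 3 with only those 2 groups, 2 within 10 kb, 0 with inside peaks, 2 with the nearest gene of any type). From 4 hours to 3 days they were 3 (3 to 3; 1 with inside peaks), and from 1 to 3 days 0 (0 to 3; 3 each with library size alone and trended offsets, 1 each with DESeq2 and no filter).

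Where the main run or the alternative called a change, signs turned only with the peak-to-gene rule. Sign turns of changes called in neither run are not listed. With inside peaks, Ptgs2 stood at 2.24 with rosiglitazone and −1.38 for forskolin against rosiglitazone. Ptgis stood at −0.39 at 4 hours and −0.20 at 1 day with inside peaks, and at −0.38 and −0.21 within 10 kb. Hpgd stood at −0.50 at 4 hours within 10 kb, and Ptger2 at 0.68 between the 3-day treatments with the nearest gene of any type. Each such rule sums other peaks, so an equal count of called genes can hold other genes. At 4 hours the nearest gene of any type gave 4 up and 0 down, with no Ptgds peak left. With inside peaks the 1 gene that fell at 4 hours was Ptgis, as Ptgds had no peak there. Over all alternatives, member genes gave 780 values with direction and call kept, 73 that moved, 41 called anew, 42 no longer called and 8 reversed.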
